A study of Mus musculus with 4 samples.

Results

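Transcript signals of the NF-kappaB and MyD88 signalling pathway, with its feedback inhibitors, were examined in mouse dendritic cells with and without liver X receptors (LXRs), at rest and after bacterial lipopolysaccharide (LPS). The genes were chosen by name from 38 symbols for Rel factors, inhibitors, kinases, TRAF and IRAK adaptors and ubiquitin enzymes, and every array probe set annotated to exactly 1 of those symbols was taken. This gave 77 probe sets for 32 genes, out of 18193 genes with a single symbol on the array. Nfkb1, Tnip3, Chuk, Traf3, Irak4 and Ripk2 had no such probe set and were not analysed here.

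LPS binds Toll-like receptor 4, whose adaptor MyD88 recruits IRAK kinases and the ubiquitin ligase TRAF6. The kinases TAK1 (Map3k7) and IKK then mark the IkappaB inhibitors for destruction, and NF-kappaB dimers of Rel proteins enter the nucleus and switch on cytokine genes and their own inhibitors. An alternative route, driven by the kinase NIK (Map3k14) and held back by TRAF and cIAP proteins, frees RelB paired with the processed product of Nfkb2, and is known for its part in dendritic cell maturation. A parallel branch through TBK1 and IKKepsilon leads to type I interferon.

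The 4 groups were bone marrow cells grown with GM-CSF for 6 to 7 days at 20 ng/mL, enriched for CD11c, and kept for 24 h with GM-CSF at 10 ng/mL. The WT control and WT LPS cultures came from wild-type mice, and the LXR-DKO control and LXR-DKO LPS cultures from mice deficient in both LXRalpha and LXRbeta, all labelled C57/BL6. The LPS cultures received LPS at 100 ng/mL, and each group was measured on 1 array. The number, sex and age of the mice behind a culture are not given in the sources used here, so the number of arrays limits the precision and no test was made.

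Values are MAS5 signals, the manufacturer's brightness summary of a probe set on a linear scale, and each gene is shown by its brightest probe set. Lower values were set to 28.9, the median of all signals, called the floor below, and no array had any of the 32 genes under it. A gene counted as different at 2-fold, a log2 ratio of 1. The only internal error is how far the log2 ratios of probe sets for 1 gene lie apart. This spread (SD) was 0.29 for LPS in WT, 0.42 for LPS in LXR-DKO, 0.45 between genotypes without LPS and 0.54 with LPS. Of the dendritic cell markers, Itgax, which encodes the CD11c used for enrichment, had signals between 3848.1 and 6093.0 in all groups. Most others of that list, given below, were not alike in the genotypes. Zbtb46 had signals of 39.4 and 29.0 in the WT cultures and of 305.9 and 393.3 in the LXR-DKO cultures. Nr1h3, the gene of LXRalpha, had signals of 108.6 and 54.5 in the WT cultures and of 40.4 and 27.0 in the LXR-DKO cultures, without and with LPS. Whether its probe set lies in the deleted part was not known here.

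With LPS, 26 of 32 members had a log2 ratio above 0 in WT and 27 of 32 in LXR-DKO, most of them by less than 2-fold. In WT, 6 of 32 members passed 2-fold upwards, where 2.93% of the 11449 genes measured were, and 0 of 32 were at least 2-fold lower, against 4.79%. In LXR-DKO, 13 of 32 did so, where the share of all genes was 6.23%, and 0 of 32 lower, against 1.82%. Scaling the arrays to the same 75th percentile moved the split over all genes in WT from 336 higher and 548 lower to 447 and 439. The median log2 ratio of the members was 0.59 in WT and 0.83 in LXR-DKO, beside -0.05 and 0.02 over all genes. Nfkbiz, Traf1, Irak3, Tnfaip3 and Birc3 passed 2-fold upwards in both genotypes, 5 of 32 members against 1.88% of all genes, and Nfkbie passed this limit in WT but not in LXR-DKO. At any size, 25 members, against 29.3% of all genes, were higher with LPS in both genotypes, 4 were lower in both and 3 went opposite ways. Of the 9623 genes that reached the floor on all arrays, 3483 were lower in both and 3365 went opposite ways. Across the 32 members the log2 responses of WT and LXR-DKO, which share no array, correlated with Pearson's r = 0.74 and Spearman's rho = 0.65, against r = 0.52 over the 9623 genes that reached the floor everywhere. Genes are not independent replicates, and each response rests on 1 pair of arrays.

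**Figure D1:**
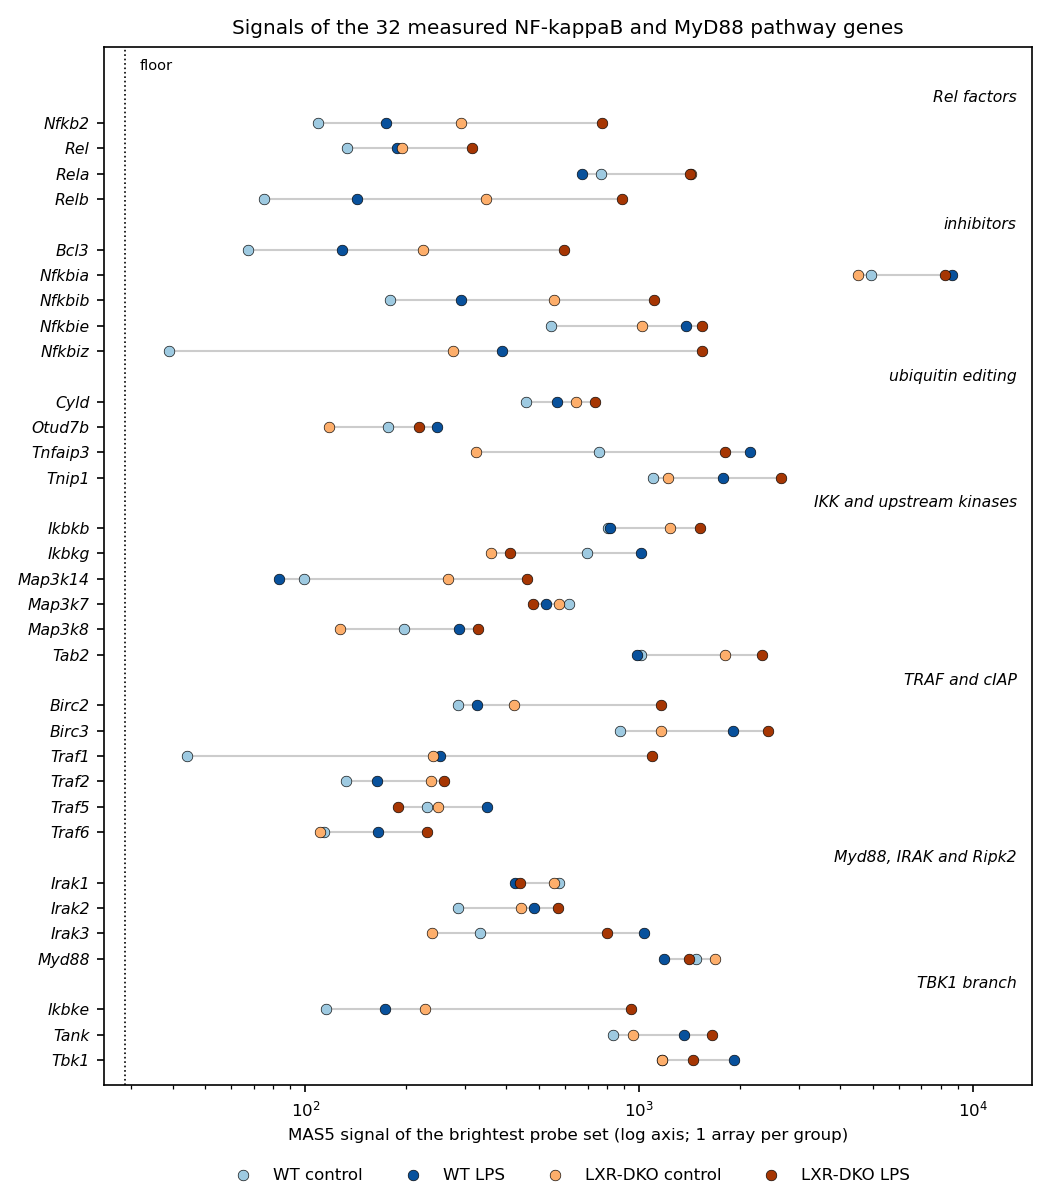
MAS5 signal of the brightest probe set of each of the 32 members on a log axis, 1 point per array, grouped by role; light and dark blue are WT control and WT LPS, light and dark orange LXR-DKO control and LXR-DKO LPS. Nfkbiz spans the widest range, from 38.9 in WT control to 1543.2 in LXR-DKO LPS, while Myd88 and Map3k7 stay within a narrow one.

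The IkappaB family and its atypical nuclear members contained the member with the highest LPS ratio. Nfkbiz encodes IkappaB-zeta, an inducible nuclear protein needed for secondary response genes such as Il6. Unstimulated WT cells had a signal of 38.9, stimulated WT cells 388.9, unstimulated LXR-DKO cells 275.8 and stimulated LXR-DKO cells 1543.2. This was 10.0-fold higher with LPS in WT, at rank 33 of 11449 genes, and 5.60-fold in LXR-DKO. The unstimulated LXR-DKO culture lay between the WT cultures. A floor of 177.4, the 75th percentile, made the WT ratio 1.13 on the log2 scale instead of 3.32. The other inhibitors had smaller ratios. Nfkbie, which encodes IkappaB-epsilon, had signals of 544.6, 1382.4, 1020.7 and 1539.3 in that order, which is kept below. With LPS it was 2.54-fold higher for WT and 1.51-fold for LXR-DKO. Bcl3, a nuclear coactivator of p50 and p52 dimers, had signals of 67.2, 128.5, 224.7 and 596.0, 1.91-fold and 2.65-fold higher. Nfkbib, encoding IkappaB-beta, stood at 179.6, 291.8, 555.5 and 1106.4, 1.62-fold and 1.99-fold higher. In Bcl3 and Nfkbib the 4 groups kept the same order, with both LXR-DKO cultures above both WT cultures.

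Nfkbia, which encodes the rapidly resynthesised inhibitor IkappaB-alpha, had like LPS ratios in both genotypes by its brightest probe set. This set gave 4943.5, 8656.3, 4525.3 and 8214.3, a ratio of 1.75-fold for WT and 1.82-fold for LXR-DKO. The other 4 probe sets of Nfkbia, which are dimmer, gave log2 ratios between 0.22 and 1.30 for WT and between 1.11 and 1.60 for LXR-DKO. The dimmest gave 0.22 for WT and 1.30 for LXR-DKO, a difference of responses of 1.07. Past 2-fold were 3 of the 5 probe sets in WT, and 4 of the 5 in LXR-DKO, although the brightest was not.

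NF-kappaB binds kappaB sequences in the promoters of its targets, so the promoters of the members were searched for them. The window was the 250 bases before each transcription start in the RefSeq table of build GRCm38.p6, which held 44 starts for 31 of the 38 genes. The kappaB consensus, a degenerate motif searched on both strands with overlaps allowed, matched at least 1 start of 11 of 31 members, 35.5%, and of 4.46% of the 27025 genes in the table. The narrower motif GGGANNTTCC, which can overlap the consensus, was found in 4 of 31 members, 12.9%, against 1.36% of genes. Counted per start, the consensus was in 14 of 44 member promoters, 31.8%, and in 3.9% of all 32851. A match is a description of letters and does not show binding. The promoters printed are those of the 4 members with a match that passed 2-fold with LPS in some genotype, and of Nfkbia. The naming rule asked for members past 2-fold with LPS in both genotypes whose promoter holds the narrower motif, and none of those printed met it. Tnfaip3 alone of them passed 2-fold in both, but it held consensus matches only. The others were chosen after their values were seen. Each is written from its 5′ end to the base before the start, with the consensus matches in capitals.
Tnfaip3, chr10:19015411-19015660, minus strand: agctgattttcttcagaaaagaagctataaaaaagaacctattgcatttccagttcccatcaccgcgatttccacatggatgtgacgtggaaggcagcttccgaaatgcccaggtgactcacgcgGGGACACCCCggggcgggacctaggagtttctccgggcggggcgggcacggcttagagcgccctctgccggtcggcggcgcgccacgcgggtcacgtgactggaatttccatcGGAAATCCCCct
Nfkbia, chr12:55492648-55492897, minus strand: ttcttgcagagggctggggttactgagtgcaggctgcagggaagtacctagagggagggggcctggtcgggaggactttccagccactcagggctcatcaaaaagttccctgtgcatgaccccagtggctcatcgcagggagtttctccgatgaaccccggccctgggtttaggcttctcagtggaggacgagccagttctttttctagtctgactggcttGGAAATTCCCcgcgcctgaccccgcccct
Nfkb2, chr19:46304487-46304736, plus strand: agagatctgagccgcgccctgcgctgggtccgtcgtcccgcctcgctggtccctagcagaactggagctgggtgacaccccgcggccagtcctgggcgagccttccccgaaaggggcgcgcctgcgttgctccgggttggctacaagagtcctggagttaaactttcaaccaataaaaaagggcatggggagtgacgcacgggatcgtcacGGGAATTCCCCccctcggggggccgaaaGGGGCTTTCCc
Tnip1, chr11:54962941-54963190, minus strand: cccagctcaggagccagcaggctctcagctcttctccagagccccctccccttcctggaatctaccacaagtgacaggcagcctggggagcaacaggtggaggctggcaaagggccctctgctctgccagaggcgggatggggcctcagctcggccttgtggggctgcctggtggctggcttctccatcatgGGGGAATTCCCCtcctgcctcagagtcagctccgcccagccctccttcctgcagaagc
Nfkbie, chr17:45555450-45555699, plus strand: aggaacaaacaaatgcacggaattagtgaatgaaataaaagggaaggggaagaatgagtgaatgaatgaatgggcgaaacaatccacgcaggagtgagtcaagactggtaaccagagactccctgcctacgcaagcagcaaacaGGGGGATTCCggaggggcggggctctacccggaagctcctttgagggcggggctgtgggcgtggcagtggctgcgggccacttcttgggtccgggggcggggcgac

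**Figure D2:**
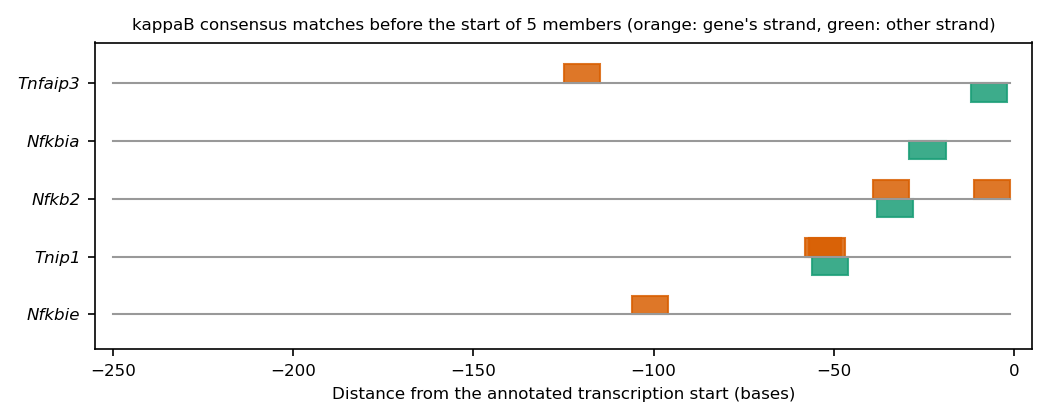
Position of kappaB consensus matches in bases from the annotated transcription start for the 5 promoters printed in the text; boxes above the line lie on the gene's strand and boxes below it on the other strand. The match nearest the start lies within 12 bases of it in Tnfaip3 and Nfkb2, and the single match begins 29 bases before it in Nfkbia and 106 in Nfkbie.

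LPS ratios of members with and without a match overlapped. Of the 9 measured members with a consensus match, 2 passed 2-fold with LPS in WT and 3 in LXR-DKO. Their median log2 ratios were 0.70 and 0.79. Of the 18 measured members whose promoters held none, 3 passed it in WT and 7 in LXR-DKO, with medians of 0.56 and 0.58. Traf1, Irak3 and Birc3, at least 2-fold higher in both genotypes, held no match in this window, and Nfkbiz had no promoter in the table.

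Ubiquitin editing genes limit the signal by removing or blocking ubiquitin chains. Tnfaip3 encodes A20, the best known of these brakes. Its signals were 758.2, 2145.7, 324.5 and 1804.7. The ratio was 2.83-fold for WT and 5.56-fold for LXR-DKO, and the unstimulated LXR-DKO culture was the lowest of the groups. Its second probe set gave log2 ratios of 2.15 and 3.07, in the same order. Tnip1, which encodes the A20-binding protein ABIN1, had 1095.9, 1777.7, 1215.3 and 2662.3, 1.62-fold and 2.19-fold higher. Cyld, with signals of 459.2, 565.8, 647.8 and 736.5, and Otud7b, with 177.2, 248.3, 117.3 and 218.9, encode deubiquitinases. They were higher by 0.30 and 0.49 on the log2 scale for WT and 0.19 and 0.90 for LXR-DKO, below 2-fold. The probe sets of Otud7b did not all share a sign in LXR-DKO. A dimmer one gave a log2 ratio of 1.43 for WT and another gave 1.17 for LXR-DKO, both past 2-fold.

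Genes of TRAF and cIAP proteins, which assemble or restrain receptor complexes, included the member with the next highest LPS ratio in WT. Traf1, an inducible adaptor, had signals of 44.1, 253.2, 241.7 and 1091.4. With LPS it was 5.74-fold higher for WT and 4.52-fold for LXR-DKO, and the unstimulated LXR-DKO signal lay just under that of stimulated WT cells. With the floor at 177.4 the WT log2 ratio of 2.52 became 0.51, below 2-fold. Birc3, which encodes cIAP2, had 873.2, 1904.6, 1160.8 and 2436.9, 2.18-fold and 2.10-fold higher. Its dimmer probe set, with signals between 37.7 and 79.6, gave a log2 ratio of 1.08 for WT and -0.12 for LXR-DKO. Birc2, which encodes cIAP1 and is the adjacent gene with 0 protein-coding genes between them, had 286.3, 325.9, 422.3 and 1158.3. It was 1.14-fold higher in WT, within the spread between probe sets, and 2.74-fold in LXR-DKO. Traf6 had signals of 113.7, 164.9, 110.6 and 231.9, 1.45-fold and 2.10-fold higher, but its other 3 probe sets measured in LXR-DKO gave log2 ratios no higher than 0.37. Traf2, a ligase adaptor of TNF receptors, had 132.7, 164.0, 237.5 and 260.2 and was higher by 0.31 and 0.13 on the log2 scale, below 2-fold.

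**Figure D3:**
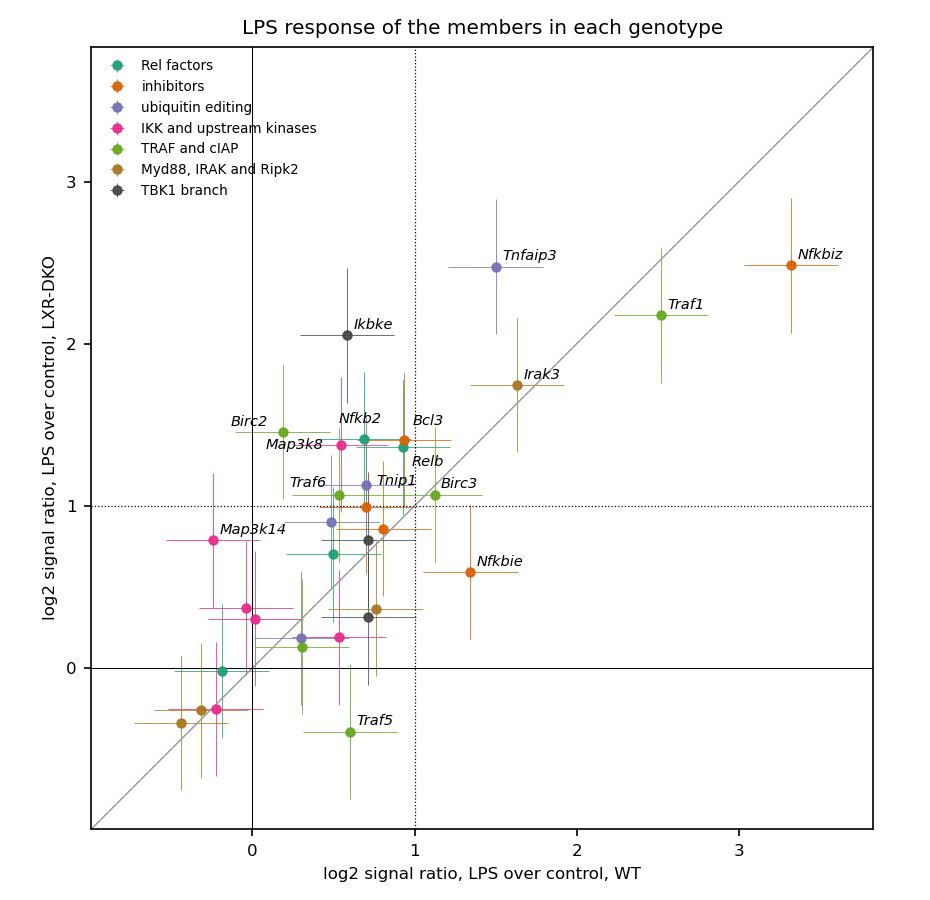
Log2 signal ratio of LPS over control in WT (x axis) and in LXR-DKO (y axis) for the 32 members, coloured by role; bars are 1 SD between probe sets of the same gene, dotted lines mark 2-fold and the grey line equal ratios. Nfkbiz and Traf1 lie farthest right, Tnfaip3, Ikbke and Birc2 lie above the grey line, and Traf5 is the only point below 0 in LXR-DKO and above 0 in WT.

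Among Myd88, the IRAK genes, Map3k7 and Tab2, Irak3 was the gene past 2-fold with LPS. It encodes IRAK-M, which lacks kinase activity and dampens Toll-like receptor signalling. Its signals were 333.9, 1034.7, 239.2 and 801.6, which is 3.10-fold higher with LPS for WT and 3.35-fold for LXR-DKO. The second probe set gave log2 ratios of 1.21 and 0.85. Myd88 had signals of 1480.9, 1187.8, 1684.7 and 1405.8, and its log2 ratios of -0.32 and -0.26 were below 2-fold. Irak1, a kinase recruited by MyD88, had 574.6, 423.3, 557.1 and 440.4, with log2 ratios of -0.44 and -0.34. Irak2, its relative, had 285.6, 483.6, 442.7 and 570.5, with 0.76 and 0.37. None of these passed 2-fold. Map3k7, with signals of 616.2, 526.3, 573.0 and 480.5, stood at -0.23 and -0.25 and its partner Tab2, an adaptor that reads ubiquitin chains, at -0.04 and 0.37.

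Among the IKK-related kinases, Map3k8 and Ikbke were past 2-fold in LXR-DKO. Map3k8 encodes TPL2, which couples IKK to the ERK pathway. It had signals of 196.9, 287.4, 126.9 and 329.7, 1.46-fold higher for WT and 2.60-fold for LXR-DKO. Ikbkb, the catalytic IKKbeta, had 805.1, 815.6, 1233.5 and 1522.3. It stood at log2 ratios of 0.02 and 0.30, and Ikbkg, the scaffold NEMO, at 0.54 and 0.19. Ikbke, which encodes the inducible kinase IKKepsilon, had 115.3, 172.7, 227.5 and 943.9, a log2 ratio of 0.58 for WT and 2.05 for LXR-DKO. The stimulated LXR-DKO culture stood apart from the other groups for Ikbke. Tbk1, the related kinase, had 1171.5, 1922.4, 1165.5 and 1446.6, and its adaptor gene Tank 831.4, 1362.5, 956.1 and 1655.1. They were higher by 0.71 in WT each and by 0.31 and 0.79 in LXR-DKO on the log2 scale.

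Of the Rel factors, Relb and Nfkb2 were past 2-fold in LXR-DKO. Relb had signals of 75.2, 143.2, 346.5 and 890.1, 1.90-fold higher with LPS for WT and 2.57-fold for LXR-DKO. Nfkb2, which encodes p100 and p52, had 108.7, 174.9, 291.6 and 775.2, 1.61-fold and 2.66-fold higher. Its dimmer probe set gave log2 ratios of 0.35 and 0.39. Rel, which encodes c-Rel, stood at 0.50 and 0.70 on the log2 scale, and Rela, which encodes p65, at -0.19 and -0.02.

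Between genotypes, Nfkbiz, Traf1 and Relb had the highest ratios of LXR-DKO over WT without LPS, and Relb, Map3k14 and Ikbke with LPS. Without LPS, 7 of 32 members passed 2-fold upwards in LXR-DKO, where 12.7% of 11728 genes were, and 1 of 32 was lower, against 9.28%. With LPS, 11 of 32 were higher, where the share of all genes was 17.8%, and 1 of 32 lower, against 8.76%. Under scaling to the same 75th percentile, the share of higher genes among all those past 2-fold went from 57.7% to 44.1% without LPS and from 67.0% to 47.1% with LPS, and quantile normalization gave 55.3% with LPS. Nfkbiz, Traf1, Relb, Bcl3, Nfkbib, Map3k14 and Nfkb2 were higher in both conditions, 7 of 32 against 10.3% of genes, and 0 of 32 were lower in both, against 6.15%. At any size 21 members were higher in both conditions, against 46.5% of genes, 7 were lower in both and 4 differed in direction. Of the 9623 genes that reached the floor on all arrays, 3534 were lower in both and 1676 differed in direction. Past 2-fold upwards with LPS alone were Birc2, Ikbke, Tab2 and Rela. The members' median log2 ratio was 0.52 without LPS and 0.44 with LPS, against 0.05 and 0.15 over all genes. With the floor at 177.4, the count without LPS was 1 of 30 and not 7, since most of these genes lay below that value in WT control. The genotype differences without and with LPS share no array and correlated across the 32 members with r = 0.84 and rho = 0.86, beside r = 0.83 over 9623 genes.

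**Figure D4:**
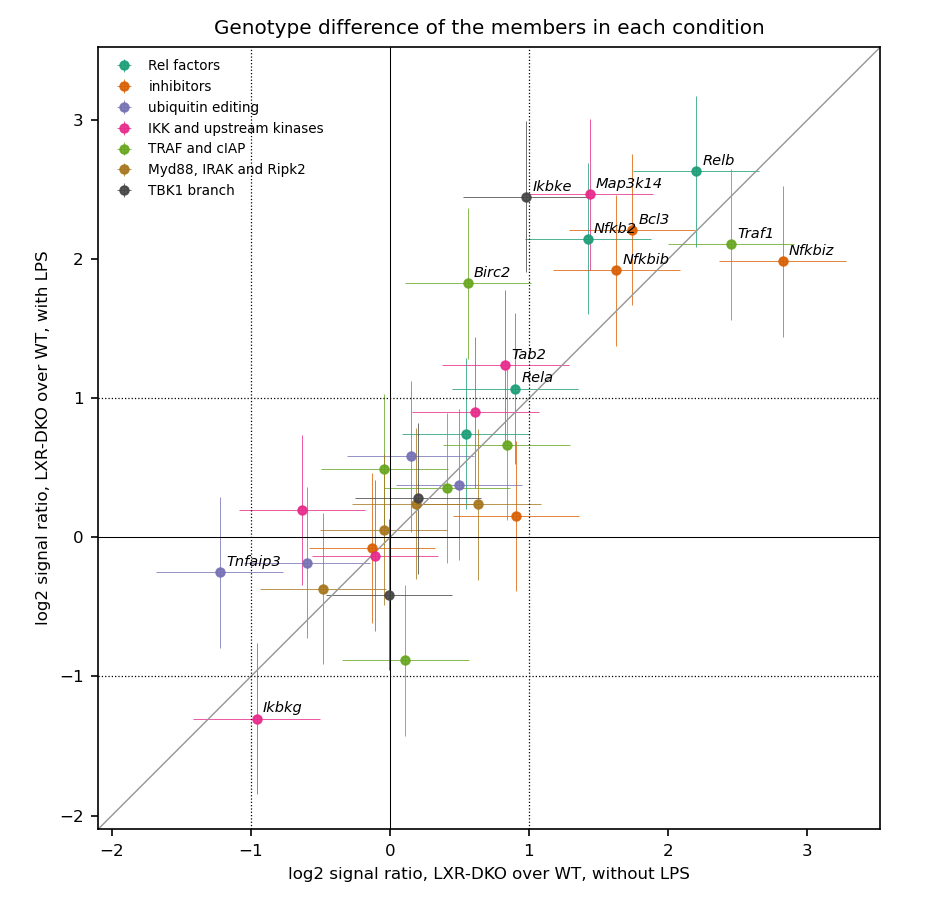
Log2 signal ratio of LXR-DKO over WT without LPS (x axis) and with LPS (y axis) for the 32 members, coloured by role; bars are 1 SD between probe sets of the same gene and dotted lines mark 2-fold. Relb, Map3k14, Bcl3, Nfkb2, Nfkbib, Traf1 and Nfkbiz lie past 2-fold on both axes, while Tnfaip3 is the lowest without LPS at -1.22 and Ikbkg with LPS at -1.30.

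Relb showed the largest genotype ratio of the members with LPS. It was 4.61-fold higher in LXR-DKO without LPS and 6.22-fold with LPS, and both WT signals, 75.2 and 143.2, lay below both LXR-DKO signals, 346.5 and 890.1. Its partner gene Nfkb2 was 2.68-fold and 4.43-fold higher. Both probe sets of Nfkb2 lay past 2-fold here, with log2 ratios of 1.42 and 1.87 without LPS. Map3k14, the gene of the kinase NIK that starts the alternative route, had signals of 98.9, 83.6, 267.8 and 462.4. It was 2.71-fold higher in LXR-DKO without LPS and 5.53-fold with LPS, and its second probe set gave log2 ratios of 1.90 and 3.46. The canonical factor Rela, with signals of 767.7, 673.3, 1432.9 and 1414.0, was 1.87-fold and 2.10-fold higher and hardly differed with LPS. Rel, with 133.3, 188.3, 194.4 and 316.0, was 1.46-fold and 1.68-fold higher.

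Of the inhibitors, Nfkbiz, Bcl3 and Nfkbib were past 2-fold in both conditions. Nfkbiz was 7.09-fold higher in LXR-DKO without LPS and 3.97-fold with LPS, and all 3 of its probe sets were at least 2-fold higher in both conditions. Bcl3 was 3.34-fold and 4.64-fold higher. Bcl3 and Relb lie on the same chromosome with 10 protein-coding genes between them. Nfkbib was 3.09-fold and 3.79-fold higher by its brighter probe set, but its dimmer set, not above 42.1, gave log2 ratios of 0.06 and 0.54 limited by the floor. Nfkbie was 1.87-fold and 1.11-fold higher by its brighter probe set. Its dimmer set gave log2 ratios of 1.56, past 2-fold, without LPS and 0.89 with LPS. For Nfkbia the direction depended on the probe set. The brightest gave -0.13 and -0.08, and the others lay between 0.01 and 0.95 without LPS and between 0.33 and 1.28 with LPS.

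Genes of ubiquitin editing and IRAK-M lay on both sides of 0. Tnfaip3 was the only member at least 2-fold lower in LXR-DKO without LPS, at a log2 ratio of -1.22, and its other probe set gave -1.34. With LPS the ratio was -0.25. Otud7b stood at -0.60 and -0.18, Tnip1 at 0.15 and 0.58 and Cyld at 0.50 and 0.38. A dimmer probe set of Cyld gave 1.19 with LPS, past 2-fold. Irak3 stood at -0.48 and -0.37 and lay below 0 for both of its probe sets in both conditions.

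The adaptors and kinases went both ways. Traf1 was 5.48-fold and 4.31-fold higher in LXR-DKO, with its other probe set at log2 ratios of 2.49 and 2.26. Birc2 was 1.48-fold and 3.55-fold higher and Ikbke 1.97-fold and 5.47-fold, so that each passed the limit with LPS alone. Tab2, with signals of 1013.3, 986.4, 1803.0 and 2330.3, was 1.78-fold and 2.36-fold higher. Traf2 stood at 0.84 and 0.67 on the log2 scale, Ikbkb at 0.62 and 0.90, Traf6 at -0.04 and 0.49 and Birc3 at 0.41 and 0.36. The dimmer probe set of Birc3 gave 0.29 and -0.91, so its direction with LPS depended on the probe set. Map3k8 stood at -0.63 and 0.20, Tbk1 at -0.01 and -0.41, Tank at 0.20 and 0.28 and Myd88 at 0.19 and 0.24. Irak1 and Map3k7 stood near 0 by the brightest probe set, at -0.04 and -0.10 without LPS, while other probe sets of the same genes reached 1.25 and 1.30.

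Ikbkg was the only member at least 2-fold lower in LXR-DKO with LPS. Its signals were 697.4 and 1010.5 in the WT cultures and 358.8 and 409.3 in the LXR-DKO cultures. The log2 ratio was -0.96 without LPS and -1.30 with LPS, and all 6 probe sets lay below 0 in both conditions, between -1.45 and -0.63 and between -1.67 and -0.21. Ikbkg and Irak1 lie on the X chromosome, and the labels do not give the sex of the mice. Xist, transcribed from the inactive X chromosome, had signals of 30.8 and 22.7 in the WT cultures and 2750.0 and 2090.4 in LXR-DKO. Of the Y-linked genes, Eif2s3y had signals of 736.6, 721.0, 279.6 and 384.3 and Uty 300.9, 291.1, 69.7 and 128.6, lower in LXR-DKO in both conditions. Kdm5d, with 126.2, 98.1, 56.1 and 93.2, was lower without LPS, while its log2 ratio of -0.07 with LPS lay within the spread between probe sets. These genes were picked after seeing the data. They differ along the same line as genotype, which holds for every LXR-DKO over WT ratio given here. The part of sex in the difference of Ikbkg or of any other member was not tested.

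**Figure D5:**
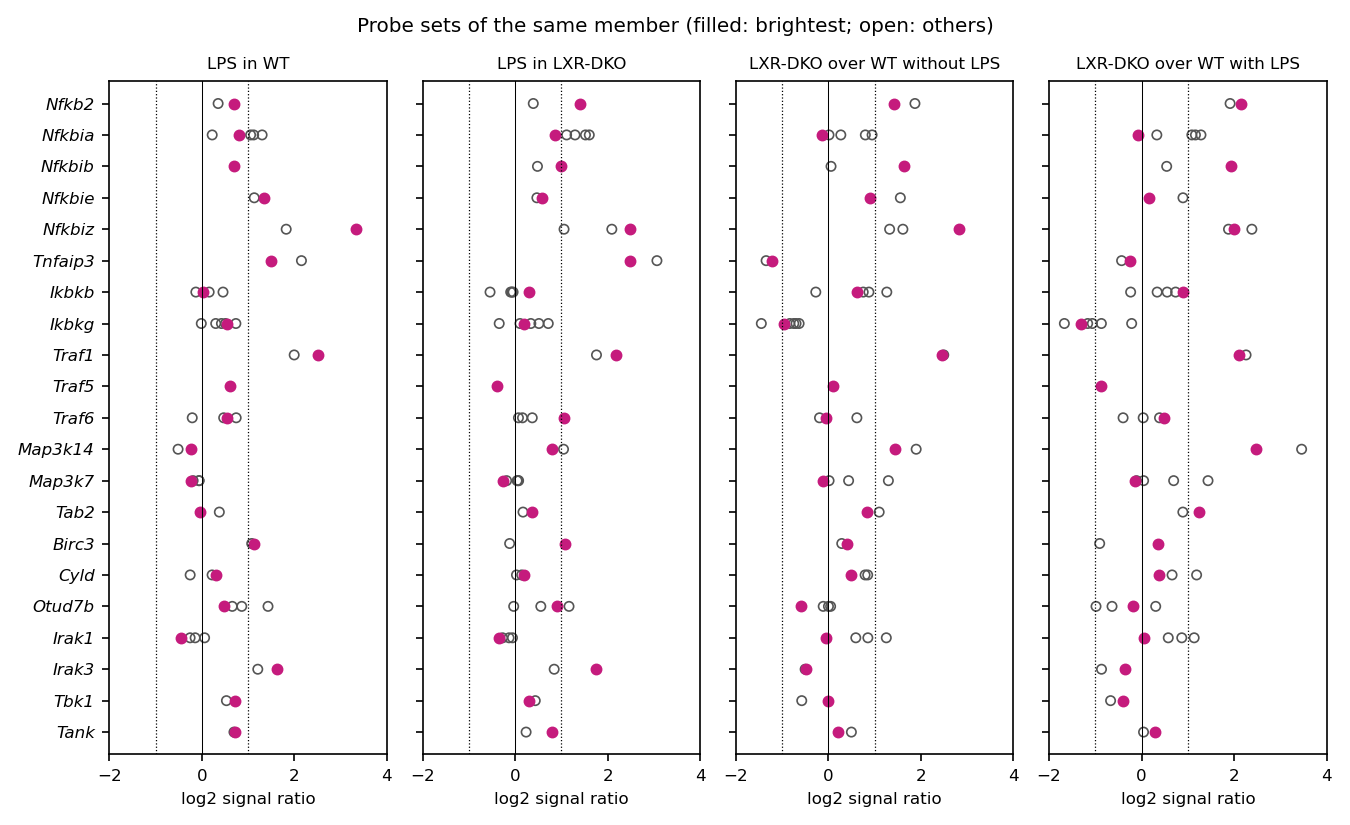
Log2 signal ratio of every probe set that reached the floor for the 21 members with more than 1, in the 4 comparisons; filled points are the brightest probe set and open points the others, and dotted lines mark 2-fold. In the genotype comparisons the probe sets of Traf1 and Tnfaip3 lie close together and all 6 of Ikbkg lie below 0. With LPS those of Ikbkg, Nfkbia, Irak1, Map3k7, Nfkbib, Ikbkb, Birc3 and Otud7b each spread over more than 1 log2 unit.

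Markers of other cell types differed between the genotypes as well. In bulk RNA, fewer cells of a type and less RNA per cell cannot be told apart. Of 8 B cell markers on the array, 4 of the 7 measured without LPS passed 2-fold upwards in LXR-DKO, and 5 of 8 with LPS. The shares of all genes, also for the lists below, were 12.7% and 17.8% higher and 9.28% and 8.76% lower. In every list, a marker below the floor in WT could only differ upwards in LXR-DKO in that condition. None of the B cell markers was 2-fold lower, but Cd22 stood at a log2 ratio of -0.73 without LPS. Ms4a1, Cd79a and Cd79b reached the floor only in LXR-DKO and could only count as higher there. The summed signal of the 8 was 518.2, 454.9, 3592.3 and 6248.3 in the order given above, with 4, 5, 1 and 0 of them below the floor. Most of the sum in LXR-DKO was Ighm, the IgM heavy chain gene, at 162.5, 84.2, 2911.2 and 4119.2, while Ms4a1, which encodes CD20, had 20.5, 19.1, 208.4 and 851.0. Of 13 dendritic cell markers, 7 of the 11 measured without LPS and 9 of the 12 with LPS passed 2-fold upwards, and 0 downwards. The list had summed signals of 7404.1, 8101.5, 17880.1 and 20767.2. Here 3, 5, 2 and 1 of the 13 lay below the floor, and Zbtb46, a marker of conventional dendritic cells, had signals of 39.4, 29.0, 305.9 and 393.3. Of 10 neutrophil markers, 6 of 10 without LPS and 7 of the 9 measured with LPS were higher, and 1 was lower in each condition. In the order given above, 4, 6, 0 and 1 of the 10 lay below the floor, so many could only count as higher. The sums were 9924.6, 11784.6, 21609.2 and 20601.9. Most of the WT sums was Mmp8, the marker that was lower, at 7882.0, 9716.4, 3829.7 and 3769.1. Mast cell, basophil and eosinophil markers summed to 544.1, 764.2, 1922.5 and 3175.8, and 6 and 7 of the 8 measured were higher. Below the floor were 6, 6, 2 and 2 of the 10 on the array, and Ms4a2, Prg2 and Epx reached it only in LXR-DKO. Macrophage and monocyte markers summed to 35274.8, 39716.3, 45196.1 and 34294.7 and went both ways, with 4 of 11 higher in each condition and 3 and 2 lower. Below the floor were 1, 3, 0 and 0 of the 11. Single markers differed far more than these sums. C1qa had signals of 18.0, 1.5, 5335.4 and 2680.3, and C1qb and C1qc were likewise far higher in LXR-DKO. Trem2 was lower there, at 4302.2, 2762.6, 286.4 and 220.3. The 7 T and NK cell markers lay below the floor on 3 arrays, and 2 of them reached it in LXR-DKO LPS, at 31.6 at most. In each condition Relb, Nfkb2, Traf1 and Map3k14 were higher in LXR-DKO than in WT. So were the sums of the B cell, dendritic cell and neutrophil lists and of the mast cell, basophil and eosinophil list. These members were picked for being higher in LXR-DKO, so the shared order was fixed by that choice and points to no cell type. The part of cell makeup in their difference was not tested.

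The LPS ratio itself was at least 2-fold larger in LXR-DKO for 3 of 32 members, against 7.69% of 10764 genes, and at least 2-fold smaller for 0, against 1.99%. These were Ikbke with a difference of log2 responses of 1.47, Birc2 with 1.27 and Map3k14 with 1.03. The spread of this difference between probe sets was 0.43. For Map3k14 it was under the limit when the arrays were rescaled, at 0.92 with a common 75th percentile, 0.97 by quantiles and 0.98 by centring, and 0.96 with no floor. Tnfaip3 at 0.97 and Map3k8 at 0.83 followed, and Map3k8 was at 0.35 with the floor at 177.4. Nfkbie stood at -0.75. For Nfkbiz the direction was not settled, since the brightest probe set gave -0.84, the other one measured gave 0.27, and a floor of 177.4 turned the brightest to 1.35. Traf5, a TRAF2-like adaptor, stood at -0.996, just inside the limit. Its signals were 230.5, 350.1, 249.1 and 189.7, so that only the WT culture was brighter with LPS. The median over the members was 0.14, beside 0.09 over all genes.

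Of 38 further pathway genes named on the array, 5 of the 37 measured in WT passed 2-fold upwards with LPS, as did 6 of 38 in LXR-DKO, and 0 were 2-fold lower. They had median log2 ratios of 0.20 and 0.12. Cd14, the LPS co-receptor, had log2 ratios of 1.92 for WT and 1.23 for LXR-DKO. Zc3h12a, which encodes the RNase Regnase-1 that destroys cytokine transcripts, stood at 1.72 and 1.32. Ly96 stood at 0.89 and 1.41, the highest of the list in LXR-DKO. The shares of all genes were 2.93% and 6.23% higher, and the medians of all genes -0.05 and 0.02. Between genotypes, 6 were higher and 3 lower in LXR-DKO without LPS, beside 12.7% and 9.28% of all genes, and 5 and 3 with LPS, beside 17.8% and 8.76%. These counts of 38 lie near the shares of all genes. Sigirr, a decoy receptor gene, was highest at 2.25 and 2.32, and Peli2, an IRAK-binding ubiquitin ligase gene, followed at 1.99 and 1.75. The LPS receptor gene Tlr4, named after its values were seen, had signals of 971.0, 1165.1, 515.1 and 563.0, a log2 ratio of -0.91 without LPS and -1.05 with LPS.

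Genes known as NF-kappaB targets were counted in the same way. Of 29 named on the array, 13 of the 26 measured in WT passed 2-fold upwards with LPS, at a median log2 ratio of 1.01, and 25 of 29 in LXR-DKO, beside 2.93% and 6.23% of all genes. The counts rest on unlike sets of genes. Il23a, Csf2 and Nos2 reached the floor only in LXR-DKO LPS, at 104.5, 64.3 and 217.8. They entered through that array alone and could only count as higher there, also in the comparison of genotypes with LPS below. Il6, a cytokine gene, stood at 6.59 and 7.39. Between genotypes without LPS, 6 of 26 passed 2-fold upwards in LXR-DKO and 6 downwards, beside 12.7% and 9.28% of all genes, at a median of 0.06 against 0.05. The inflammatory chemokine genes Ccl2, Ccl3 and Ccl4 were lower at -4.06, -3.81 and -3.20, while the chemokine gene Ccl5 was higher at 3.12. With LPS, 14 of 29 were higher and 2 lower, beside 17.8% and 8.76% of all genes, at a median of 0.96 against 0.15. The cytokine gene Il12b was highest at 4.06, and the maturation marker Cd83 stood at 3.49.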

How the data were processed

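RNA of 4 cultures was measured on 1 array each. Per the submitters' processing notes, the deposited intensity values are MAS5 signals on a linear scale, whose version and settings are not given in the sources used here. The mean signal after leaving out 2% at each end was 200.0 on every array. Of 45101 probe sets, 64 controls were dropped. Gene names came from GEO's platform annotation where it gave 1 symbol (34945 probe sets), with 932 of several and 9160 not listed. Signals were floored at 28.9, the pooled median, which 47.8% to 52.6% of probe sets per array reached. Each gene was represented by its probe set with the highest mean over the arrays, and was measured in a comparison where at least 1 array reached the floor. Log2 ratios and the share at least 2-fold different were computed with pandas 2.3.3, with no p-value. Counting was tested on simulated data.

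The members, gene lists and tests were chosen with earlier results of these data known. The rule for named genes was all members, with their signals on the 4 arrays. Of the further pathway genes and the targets, it was at most 4 per comparison, by the size of the ratio. Tlr4, the cell type markers and the targets that reached the floor in LXR-DKO LPS alone were named outside this rule. Promoters came from RefSeq (GRCm38.p6). Alternatives were 3 scalings, 3 treatments of low signals and 2 choices of probe set.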

Additional observations from a re-analysis of the deposited data

Results flagged for a closer look

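Map3k14, the gene of the kinase NIK, was singled out because its log2 LPS ratio had opposite signs in the genotypes, -0.24 in WT and 0.79 in LXR-DKO, a difference of 1.03, which was between 0.92 and 1.30 under the alternatives that gave a value. All 4 signals lay above the floor, but the WT ratio lay within the spread between probe sets of 0.29. The second probe set of Map3k14 gave -0.51 and 1.05, with WT signals of 47.1 and 33.0 near the floor of 28.9. With 1 array per group the difference was not tested.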

How the results depend on the processing

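No paired analysis was possible because each group had 1 array. Of the 39 member ratios past 2-fold, 24 were past it under every alternative that gave a value and 15 were lost under some. Birc3 with LPS in LXR-DKO turned to -0.12 with probe sets without a suffix. With the floor at the 75th percentile, members higher in LXR-DKO without LPS fell from 7 to 1. Under each of the 3 scalings (to a common 75th percentile, by quantiles, and centring on the median ratio), members lower in LXR-DKO were 2 without LPS and 2 with LPS instead of 1 each, and 1 member instead of 0 had a smaller LPS response, as also with probe sets without a suffix. All medians kept their sign. Over all genes, the median genotype ratio with LPS of 0.15 became -0.11 under 75th percentile scaling, and that without LPS of 0.05 became -0.12. With LPS, members higher were 11 in the main setting and between 8 and 12 under the alternatives. Dim signals limit Nfkbiz, Traf1, Bcl3 and Relb in WT control most.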
